A study of Isoetes sinensis with 3 samples.

Results

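Genes of *Isoetes sinensis*, a tetraploid quillwort and thus a lycophyte, were selected from the deposited gene annotation by their exon structure. A gene was a member when it lay on 1 of the 22 pseudochromosomes, had 10 to 19 CDS segments (the stretches of exon that code for protein), and had an ordered list of internal CDS lengths, that is all lengths but the first and the last, that no other annotated gene held. This rule found 2297 members among 5467 genes of 10 to 19 CDS segments on the pseudochromosomes and among 57303 annotated genes in all. The other 3170 genes of that size shared their list with at least 1 further gene and are called shared-list genes. The selection rested on the CDS number and the CDS lengths, so these are described without a test, and the tests concern other measures (UTRs, introns, strand and gene order).

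Total RNA was sequenced with 1 library each from root, shoot and a tissue labelled sporophyte, which the methods call sporangia, to help annotate the genome. The annotation belongs to no tissue, each gene has 1 mRNA in it, and no tissue was compared with another. The values are counts and lengths in bp of annotated features and carry no read depth, although assembled transcripts were part of the evidence for the annotation. All positions refer to the study's own assembly. The pseudochromosomes with neighbouring numbers, 1 with 2 through 21 with 22, carry corresponding genes and form 11 chromosome pairs, and an SD describes the spread over these 11.

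In a gene, exons are joined after the introns between them are removed, and the boundaries are set by a donor site at the start and an acceptor site at the end of each intron. A change in the length of an internal coding exon leaves the downstream reading frame as it was only when the change is a multiple of 3 bp. A tetraploid plant usually carries a second copy of a gene on the corresponding chromosome of its other genome, and positions of introns within coding sequence are among the slowly changing features of plant genes. A gene model is a prediction, so a difference between the models of copies can lie in the genome or in the annotation. These alternatives cannot be told apart from positions alone. The annotation gives no gene names or functions, so genes are named by their identifiers.

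Members made up 42.0% of the genes of 10 to 19 CDS segments (SD 4.43 percentage points over 11 chromosome pairs). Their share was lowest on chromosomes 17 and 18, with 35.6%, and highest on chromosomes 11 and 12, with 48.6%. It ran from 38.2% of genes with 12 CDS segments to 51.2% of genes with 16. Just outside the chosen range, 43.6% of genes with 9 segments and 53.5% of genes with 20 held a unique list, against 43.7% with 10 and 44.7% with 19. Members had a median of 12 CDS segments and a median total CDS of 1704 bp, and shared-list genes a median of 12 segments and 1683 bp. The total CDS was a multiple of 3 in 2282 of 2297 members (99.3%) and in all 3170 shared-list genes.

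Most members with a unique list nevertheless had a recognisable counterpart. In 1607 members (70.0%, SD 4.57) a gene on the neighbouring-numbered chromosome shared a run of at least 4 consecutive internal CDS lengths, and the gene with the longest run is called the partner. The median run was 8 lengths, 5 members reached 17, and the run covered at least 50% of the member's internal list in 1396 of the 1607 (86.9%). A run of 4, the shortest admitted, was the longest in 176 members. A run of 3, just below the limit, was the longest in 106 members, and 76 of these matches (71.7%) lay at the corresponding place in the gene order, against 151 of 176 (85.8%) for runs of 4 and 802 of 829 (96.7%) for runs of 8 or more. A match lay at the corresponding place when it was at most 10 gene ranks outside the interval set by the nearest genes on either side that share an identical list with 1 gene of the partner chromosome.

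The partner chose the member back in 1483 of 1607 cases (92.3%), and 1151 partners (71.6%) were members themselves. Of the partners, 255 had fewer than 10 CDS segments and 102 had more than 19. In 125 cases the partner's list was held by at least 1 further gene. Such a holder lay on the member's own chromosome and not on the partner's in 55 cases, and on the partner's chromosome in 20. The name of the set thus holds for the exact list only. Counting each pair of genes once gave 1050 pairs, of which 926 were mutual best matches and 594 joined 2 members.

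The copies of a pair differed in several ways. The number of CDS segments was equal in 230 of 1050 pairs (21.9%), differed by 1 in 303, by 2 to 4 in 350 and by 5 or more in 167. The first CDS had the same length in 509 pairs and the last in 548. A difference was called internal when exons of equal length flanked it on both sides, and 559 differences were internal against 1044 at an end of the gene. Pairs with end differences only numbered 568 (54.1%), pairs with exactly 1 internal difference 416 (39.6%, SD 2.98), and pairs with 2 or more internal differences 66 (6.29%). Of the pairs with 1 internal difference, 197 had no difference at either end. The annotated phase, which states where a codon starts within an exon, was the same in 9747 of 9771 exons of equal length after the first CDS (99.8%).

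**Figure D1:**
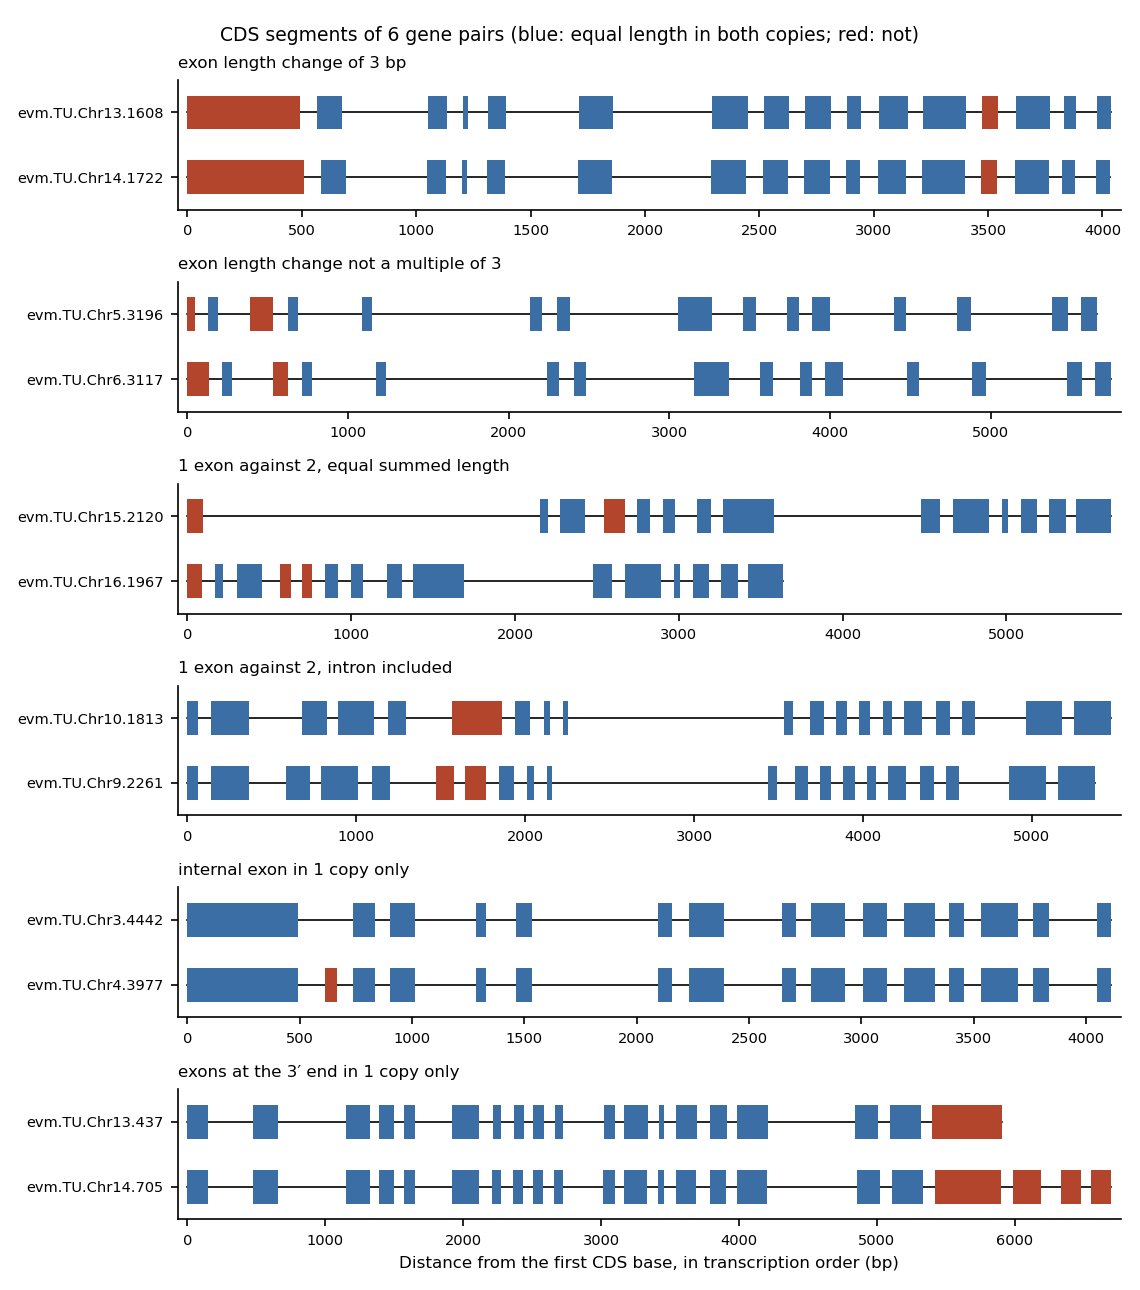
CDS segments (boxes) and introns (lines) of 6 gene pairs, to scale, as distance in bp from the first CDS base in transcription order. Each panel has its own scale and shows 1 kind of difference, with blue boxes for segments of equal length in both copies and red boxes for the others. In the fifth panel the 54-bp exon of evm.TU.Chr4.3977 and the introns around it together measure 244 bp, the length of the first intron of evm.TU.Chr3.4442.

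Changes in the length of a single internal exon formed the largest simple class, with 293 of 559 internal differences. A multiple of 3 bp accounted for 281 of the 293 (95.9%, SD 3.12), and the share ran from 90.9% to 100% over the 11 chromosome pairs. The alignment gave multiples of 3 no preference, but both total CDS lengths were multiples of 3 in 1039 of the 1050 pairs, and a change that is the only difference of such a pair has to be one. That held for 114 of the 293 changes, all of them multiples of 3. Among the 179 changes in pairs with a further difference, 167 (93.3%) were multiples of 3. A change between exons that keep the same annotated phase in both copies has to be one too, and nearly all exons of equal length kept it. This share is therefore also a description only. The commonest size was 3 bp, the length of 1 codon, with 96 changes, followed by 6 bp with 39, 9 bp with 32, 12 bp with 26 and 15 bp with 16. Changes of at most 15 bp made up 209 of the 281 multiples of 3 (74.4%). The longer exon lay on the odd-numbered chromosome in 156 of 293 changes (53.2%). The changed exons were long ones, with a median of 211 bp in the longer copy. The 10293 exons of equal length had a median of 105 bp, counted over all 1050 pairs, with or without such a change.

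**Figure D2:**
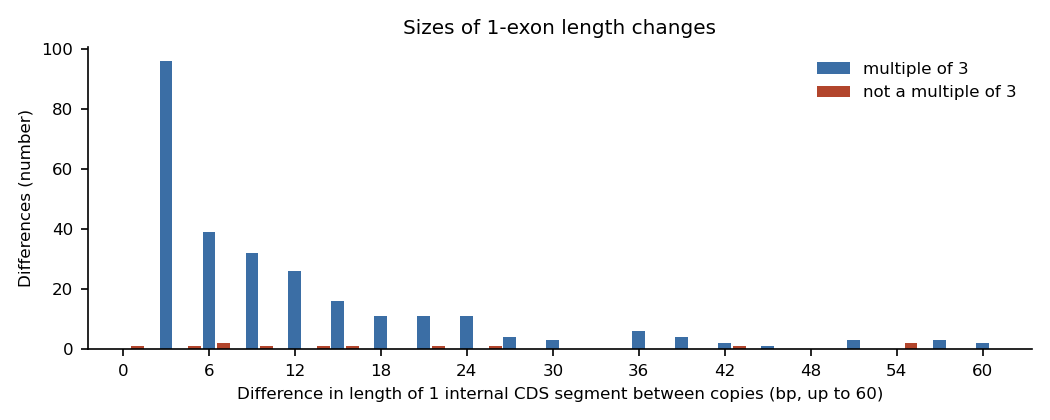
Number of internal length changes of 1 CDS segment by size in bp, up to 60 bp, with multiples of 3 in blue and other sizes in red. The bar at 3 bp holds 96 changes and the bars fall off towards larger multiples of 3, while the 12 other changes are scattered from 1 to 55 bp.

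A change of 3 bp was the only difference in CDS lengths in the best-matched pair of that class, evm.TU.Chr11.2513 (chromosome 11, 47183312 to 47189228, plus strand) and evm.TU.Chr12.2405 (chromosome 12, 44152205 to 44157773, minus strand). Both had 19 CDS segments, of which segments 2 to 13 measured 61, 37, 137, 253, 134, 140, 51, 83, 52, 112, 466 and 327 bp in both copies. Segment 14 measured 211 bp in the chromosome 11 copy and 208 bp in the chromosome 12 copy, and the introns on both sides of it, 86 and 75 bp, were equal. The whole region between the flanking exons was therefore 3 bp longer in the first copy, at 372 bp, than in the other, at 369 bp. The total CDS was 3090 bp and 3087 bp.

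The next pair showed the pattern of a shifted boundary within a region of equal length. In evm.TU.Chr13.1608 (chromosome 13, 31751418 to 31755639, minus strand) segment 13 measured 69 bp after an intron of 70 bp and before an intron of 81 bp. In evm.TU.Chr14.1722 (chromosome 14, 32525423 to 32529458, minus strand) the same segment measured 72 bp after 70 bp and before 78 bp. The region between the flanking exons was 220 bp in both copies. The annotated donor site lay 3 bp further from the preceding exon in the chromosome 14 copy. Their first CDS differed too, with 492 bp and 510 bp.

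These patterns could be counted over all 293 length changes. Both neighbouring introns were equal in 70 (23.9%), so that the region had grown or shrunk by just the exon's change. The exon's change was offset exactly by the intron before it in 24 cases, the pattern of a moved acceptor, and by the intron after it in 12, that of a moved donor. Whether a boundary moved or exon and intron changed by opposite amounts was not tested. In the other 187 at least 1 neighbouring intron differed by another amount, both introns in 97 of them. Of the introns next to a changed exon, 266 of 586 (45.4%) had the same length in both copies. Over all 1050 pairs, with or without such a change, 61.7% of the introns between equal exons did. The share was lower next to the changed exon in 11 of 11 chromosome pairs. In the 24 and 12 offset cases an intron beside the changed exon is unequal by definition, so this direction is in part set in advance.

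Larger multiples of 3 gave 185 changes. The pair of this class with the longest run, evm.TU.Chr21.928 (chromosome 21, 18675184 to 18687297, minus strand) and evm.TU.Chr22.861 (chromosome 22, 14410099 to 14422235, minus strand), shared a run of 16 internal lengths. Its exon 18 of the CDS measured 1584 bp in the chromosome 21 copy and 1593 bp in the chromosome 22 copy. Next came evm.TU.Chr13.2337 (chromosome 13, 45100191 to 45106983, plus strand), with 162 bp in segment 17, and evm.TU.Chr14.2355 (chromosome 14, 44070173 to 44076780, minus strand), with 174 bp. There the introns beside the changed exon, 88 and 69 bp, were equal in both copies. Both changes lay in the last segment but 1, directly after the shared run.

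Changes that were no multiple of 3 numbered 12 and ran from 1 to 55 bp. All 12 lay in pairs with at least 1 further difference, and in all 12 the total CDS of both copies was a multiple of 3. In 1 pair of mutual best matches such a change was the only one in the internal list. In evm.TU.Chr5.3196 (chromosome 5, 59637697 to 59643739, plus strand) CDS segment 3 measured 145 bp after an intron of 201 bp. In evm.TU.Chr6.3117 (chromosome 6, 60518822 to 60524865, plus strand) it measured 90 bp after an intron of 256 bp. The intron and the exon together had the same length in both copies, and the acceptor site was placed 55 bp apart. The first CDS measured 49 bp in the chromosome 5 copy and 137 bp in the chromosome 6 copy, so the coding start was annotated differently as well.

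**Figure D3:**
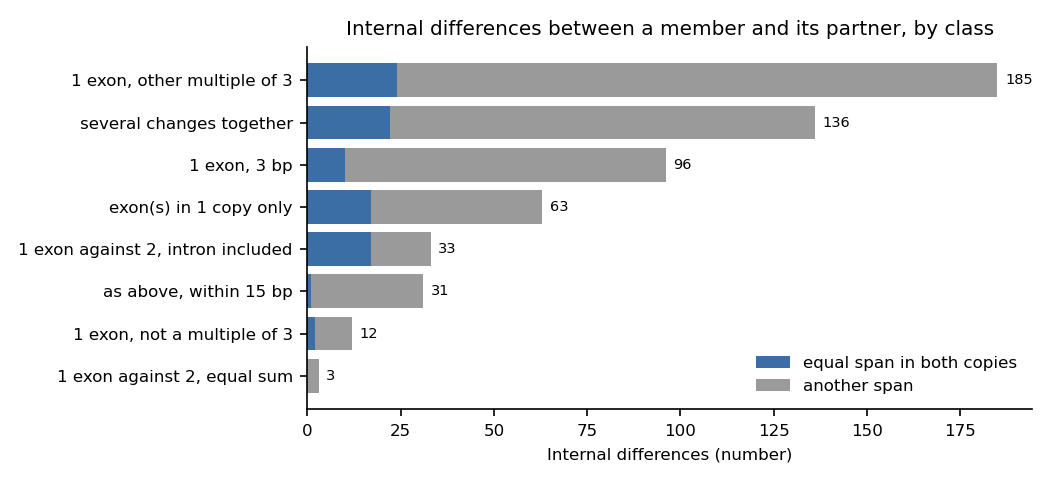
Number of internal differences in each of 8 classes, from 559 in all. The blue part of a bar counts the differences whose flanking exons lie equally far apart in both copies, which holds for 17 of 33 cases where 1 exon faces 2 with the intron included, and for 10 of 96 changes of 3 bp.

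An exon in 1 copy faced 2 exons in the other in several ways. In 33 internal differences the length of the undivided exon equalled that of both exons plus the intron between them. These introns measured 60 to 123 bp, with a median of 75 bp, and all 33 were a multiple of 3 long, against 32.9% of all introns of that length range in genes of 10 to 19 CDS segments. A stretch that is read through within a coding exon has to be a multiple of 3 to leave the frame as it was, so this count is given as a description. The flanking exons lay equally far apart in both copies in 17 of the 33 (51.5%), more often than in any other class of internal difference with more than 3 members.

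In a further 31 differences, collected with a tolerance of 15 bp that was chosen after the values were seen, the undivided exon matched the 2 exons and their intron closely but not exactly. The mismatch was 1 or 2 bp in 22 of them. The included stretch was a multiple of 3 in all 31, while the corresponding intron was a multiple of 3 in only 2. A UTR, an untranslated part that marks a model extended beyond its coding sequence, was annotated in 52 of the 64 undivided models and in 52 of the 64 divided ones when both kinds were counted.

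The best-matched example, evm.TU.Chr10.1813 (chromosome 10, 35636068 to 35641539, plus strand), had a CDS segment of 297 bp. Its partner evm.TU.Chr9.2261 (chromosome 9, 43501497 to 43507443, minus strand) had segments of 105 and 123 bp there, separated by 69 bp. The other lengths of the list were the same, including a run of 12 that read 89, 37, 34, 53, 78, 66, 67, 54, 108, 83, 79 and 215 bp. The next pair had the undivided exon on the even-numbered chromosome. In evm.TU.Chr9.2948 (chromosome 9, 56790809 to 56797192, plus strand) segments of 73 and 92 bp were separated by 69 bp, and evm.TU.Chr10.2498 (chromosome 10, 48561316 to 48567400, plus strand) had 1 segment of 234 bp in their place. The region between the flanking exons was 1038 bp long in both copies. In both pairs only the divided model carried a UTR, although over all such differences divided and undivided models carried one equally often.

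Among the inexact cases in which nothing else in the internal list differed, evm.TU.Chr7.373 (chromosome 7, 7819779 to 7825567, plus strand) and evm.TU.Chr8.363 (chromosome 8, 6287329 to 6293071, plus strand) had the longest run, 14 lengths. This pair was chosen after its values were seen. The undivided segment of the chromosome 7 copy measured 333 bp, while the chromosome 8 copy had segments of 67 and 137 bp with an intron of 128 bp. The included stretch of 129 bp was thus 1 bp longer than the intron, and the flanking exons lay 473 and 472 bp apart.

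In only 3 differences did the undivided exon equal the sum of the 2 exons without the intron, the pattern of an intron present in 1 copy and absent from the coding region of the other. In evm.TU.Chr15.2120 (chromosome 15, 39242348 to 39248243, plus strand) a segment of 126 bp faced segments of 67 and 59 bp with an intron of 69 bp in evm.TU.Chr16.1967 (chromosome 16, 37387603 to 37391528, plus strand). The flanking exons lay 313 bp apart in the chromosome 15 copy and 385 bp apart in the chromosome 16 copy. In evm.TU.Chr19.3276 (chromosome 19, 61409669 to 61415247, minus strand) segments of 153 and 52 bp with an intron of 792 bp faced 1 segment of 205 bp in evm.TU.Chr20.3122 (chromosome 20, 60826013 to 60831612, plus strand). Here the flanking exons lay 1730 bp and 1079 bp apart. All 4 of these models carried a UTR. The distance between the flanking exons was longer in the copy with the intron in both pairs, by 72 bp and by 651 bp.

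Internal exons present in 1 copy only made up 63 differences. A single exon was concerned in 41 and up to 7 exons in the rest. The single exons measured 30 to 207 bp with a median of 79 bp, and 37 of the 41 (90.2%) were a multiple of 3 long. Only 1 of the 41 had the length of an exon next to it. The flanking exons lay equally far apart in both copies in 17 of 63 and within 3 bp in 24, so in these pairs the extra exon was offset by shorter introns. A UTR was annotated in 46 of 63 models with the exon (73.0%) and in 33 of 63 without it (52.4%).

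Apart from the additional exon, the pair with the longest run in this class had the same CDS lengths throughout. The chromosome 3 copy, evm.TU.Chr3.4442 (84349167 to 84353278, minus strand), had 15 CDS segments, and its first intron measured 244 bp. The chromosome 4 copy, evm.TU.Chr4.3977 (70410787 to 70416411, plus strand), had 16, with introns of 120 and 70 bp around an additional exon of 54 bp, which again make 244 bp. All 12 introns between the other internal exons were equal in length. The chromosome 4 copy carried a UTR and the chromosome 3 copy did not. The next pair was evm.TU.Chr19.2337 (chromosome 19, 42908134 to 42913471, plus strand) and evm.TU.Chr20.2216 (chromosome 20, 41913555 to 41918857, minus strand). The chromosome 20 copy had additional exons of 70 and 119 bp, neither of them a multiple of 3 but 189 bp together, within a region of 1229 bp, where the chromosome 19 copy had an intron of 1272 bp. Both copies of that pair carried a UTR.

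The remaining 136 internal differences combined several changes between the flanking exons. In 51 of them 2 exons faced 2, and in 9 of these the summed length was the same, the pattern of a moved boundary inside. The summed CDS length differed by a multiple of 3 in 130 of 136, and over all 559 internal differences in 534 (95.5%). Equal distance of the flanking exons was found in 93 of the 559 (16.6%, SD 7.78, 4.17% to 30% over the chromosome pairs), and a tolerance of 3 bp raised the share to 39.7%.

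Differences at an end of the gene were more frequent than internal ones. They numbered 541 at the 5′ end and 503 at the 3′ end. In 354 cases at the 5′ end and 360 at the 3′ end a model with at most 1 CDS segment beyond the shared part faced a model with more. The median was 2 further segments at either end. The shorter model carried a UTR at that end in 181 of 354 cases at the 5′ end (51.1%) and in 220 of 360 at the 3′ end (61.1%). The longer model did so in 158 cases at the 5′ end (44.6%) and in 237 at the 3′ end (65.8%). The difference between the models was smaller than its SD over the chromosome pairs at both ends, with a mean of 5.21 percentage points (SD 9.97) at the 5′ end and -4.59 percentage points (SD 7.46) at the 3′ end.

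The ends differed in how the shorter model stopped. At the 3′ end its last CDS was longer than the exon facing it in 278 of 349 cases (79.7%, SD 7.27), and in 226 of these 278 it extended by no more than the length of the next intron of the longer model. At the 5′ end its first CDS was longer than the facing exon in 113 of 341 (33.1%, SD 8.91) and shorter in 228. In 38 of those 228 the whole exon, with its UTR, had exactly the length of the facing exon. This is the pattern of a coding start annotated inside the same exon, but only lengths were compared.

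The longest run of all belonged to a pair with such an end. In evm.TU.Chr13.437 (chromosome 13, 8826118 to 8832206, plus strand) and evm.TU.Chr14.705 (chromosome 14, 12966144 to 12973413, minus strand) 17 internal lengths agreed, from 182, 171, 111 and 78 bp through to 219, 171 and 225 bp. The chromosome 13 copy then ended with a CDS of 507 bp. The chromosome 14 copy had 484 bp there, followed by an intron of 88 bp and by segments of 197, 142 and 149 bp. The last CDS of the shorter model thus ran 23 bp past the donor site of the longer one. The pair evm.TU.Chr13.3741 (chromosome 13, 72781420 to 72790384, plus strand) and evm.TU.Chr14.3761 (chromosome 14, 70665778 to 70674230, plus strand) also shared 17 lengths, and ended with 417 bp in the chromosome 13 copy against 183, 84 and 126 bp in the chromosome 14 copy. In that pair only the chromosome 13 copy carried a UTR, and in the pair before it both copies did.

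Some exons missing from an end were found in the next gene. For each of the 714 shorter models, the 2 genes beyond that end on the same strand were searched for the further exons of the longer model. A run of at least 2 of their lengths was found in 114 (16.0%), and a run of at least 3 in 82. The run was found in 1 of 263 cases with 1 further exon, in 45 of 328 with 2 to 4 and in 68 of 123 with 5 or more. A run of at least 2 is easier to find among more exons, so this order is in part set by the search. The gene holding them was directly adjacent in 106 of 114 cases, at a median distance of 196.5 bp. These 114 cases belonged to 113 of the 1050 pairs (10.8%). How often such short runs recur by chance in a neighbouring gene was not tested.

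**Figure D4:**
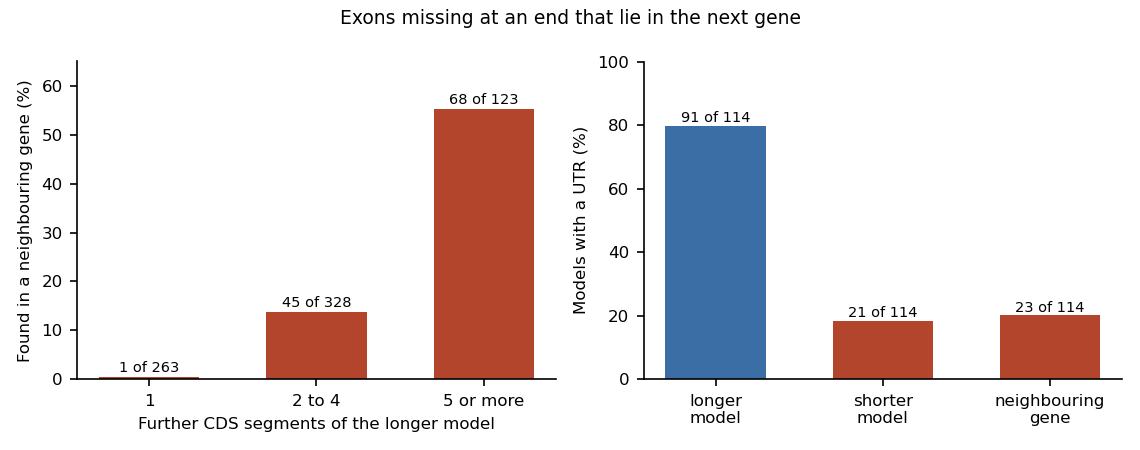
Left, percentage of shorter models for which a run of at least 2 of the missing CDS lengths was found in 1 of the next 2 genes, by the number of further segments of the longer model, which itself makes a run easier to find. Right, percentage of models with an annotated UTR in the 114 cases found, with 91 longer models, 21 shorter models and 23 neighbouring genes.

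In these cases the UTR was mostly annotated on the longer model. A UTR was annotated in 91 of 114 longer models (79.8%), in 21 of the shorter ones (18.4%) and in 23 of the neighbouring genes (20.2%). Only the longer model had a UTR in 74 cases and only the shorter in 4, and the longer models were ahead in 11 of 11 chromosome pairs. In the other 600 cases, 430 longer models (71.7%) and 447 shorter models (74.5%) had a UTR. With a run of at least 3, a UTR was annotated in 67 of 82 longer models, 18 shorter models and 19 neighbouring genes. The search was designed after the end differences were seen, so these shares are given without a test.

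The most extreme case involved a model of 57 CDS segments. On chromosome 16, evm.TU.Chr16.3916_evm.TU.Chr16.3917 (71712617 to 71743315, plus strand), whose identifier joins those of a pair of genes, held a CDS of 7500 bp. On chromosome 15 its first 9 lengths, 120, 339, 75, 173, 99, 160, 144, 170 and 205 bp, recurred in evm.TU.Chr15.4163 (76599107 to 76602560, plus strand). Its last 9, 174, 129, 84, 62, 73, 135, 168, 245 and 19 bp, recurred in the next gene, evm.TU.Chr15.4164 (76628153 to 76638069, plus strand). Both chromosome 15 genes had 10 CDS segments and were members with the same partner. The other 39 segments of the chromosome 16 model were not matched in order to either gene, and 25592 bp lay between the 2 genes.

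No partner was found for 690 members. For 443 of them (64.2%) no gene of the annotation shared a run of 4 internal lengths. The longest such run lay on a pseudochromosome of another pair for 186, on the member's own chromosome for 29, of which 16 lay within 10 gene ranks, and on an unplaced scaffold for 32. A run of 4 on any of the 20 unpaired pseudochromosomes occurred in 218 of the 690 (31.6%) and in 514 of the 1607 members with a partner (32%). Where the expected place on the partner chromosome was known to within 100 ranks, which held for 622 members without partner, the best gene at that place shared a run of 3 lengths with 76, of 2 with 53 and of 1 or 0 with the rest. A UTR was annotated in 343 of the 690 (49.7%) and in 1176 of the 1607 members with a partner (73.2%).

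The member without partner that came first by CDS number, evm.TU.Chr1.4696 (chromosome 1, 89674140 to 89680154, plus strand), repeated its own structure. After a first segment of 225 bp, the lengths 186, 363, 213, 120, 31, 153 and 428 bp occurred in full 2 times and then began again with 186, 363 and 213 bp. The introns repeated with them, with 121, 36, 211, 99, 47, 71 and 66 bp 2 times in that order. A list that repeated a run of at least 3 lengths within itself occurred in 18 of 2297 members (0.784%) and in 6 of 3170 shared-list genes (0.189%). The next member without partner, evm.TU.Chr6.5205 (chromosome 6, 99180655 to 99189523, minus strand), had 19 CDS segments of 24 to 659 bp without such a repeat.

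UTRs, introns, gene order and strand were then compared, with 1 value per chromosome pair. An exact two-sided permutation test over all changes of sign was used, and its p-values were adjusted over 5 tests by the Benjamini-Hochberg method. Members carried a UTR less often than shared-list genes. The share was 66.1% of members (1519 of 2297) and 90.3% of shared-list genes (2861 of 3170), and over the chromosome pairs it ran from 59.5% to 71.2% in members and from 87.5% to 92.9% in shared-list genes, without overlap. The mean difference was -24.1 percentage points (SD 3.99, n = 11 chromosome pairs), lower in 11 of 11, with an exact permutation p of 0.000977, the smallest that 11 pairs allow, and an adjusted p of 0.00122. Within the pairs, 1 copy alone had a UTR in 358 of 1050 member pairs (34.1%) and in 97 of 1342 identical-list pairs (7.23%). Identical-list pairs are genes of the same size whose list is held by exactly these 2 genes, on paired chromosomes. Where only 1 copy had a UTR in a member pair, it was the one with more CDS segments in 203 of 358 and the one with fewer in 114.

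Long introns were more frequent in members. Introns over 1 kb made up 6.53% of the introns between CDS segments of members (1768 of 27062) and 3.66% of those of shared-list genes (1364 of 37242). The mean difference was 2.85 percentage points (SD 1.34, n = 11 chromosome pairs), higher in 11 of 11, with an exact permutation p of 0.000977 and an adjusted p of 0.00122. Among models with a UTR only, it was 1.72 percentage points (SD 1.56, exact permutation test, adjusted p = 0.00977). Median introns were close, with 94 bp in members and 90 bp in shared-list genes. An intron over 5 kb occurred in 201 members (8.75%) and in 119 shared-list genes (3.75%).

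**Figure D5:**
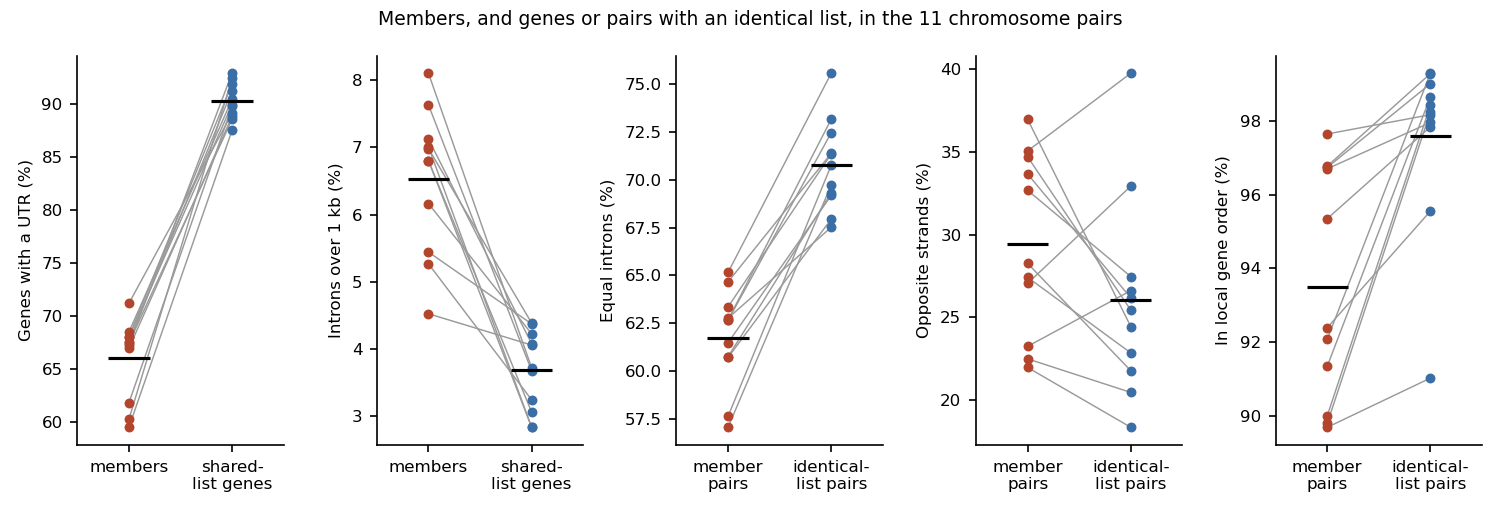
Percentages in the 11 chromosome pairs (points, joined by a line for each pair) with their mean (black bar). The panels give genes with a UTR, introns over 1 kb, introns of equal length in both copies, pairs on opposite strands and pairs in the local gene order, for members or member pairs at left and shared-list genes or identical-list pairs at right. The points of members and shared-list genes do not overlap for the UTR, with 59.5% to 71.2% against 87.5% to 92.9%, and the lines cross for opposite strands.

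Introns between exons of equal length also agreed less often in member pairs. The lengths were identical in 4756 of 7709 introns of member pairs (61.7%) and in 9254 of 13112 of identical-list pairs (70.6%). The mean difference was -9.04 percentage points (SD 2.54, n = 11 chromosome pairs), lower in 11 of 11, with an exact permutation p of 0.000977 and an adjusted p of 0.00122. Identical-list pairs were chosen for agreeing over the whole list, while member pairs needed a run of at least 4 and include matches that are not mutual. This favours the share of the identical-list pairs. How much of the difference comes from this choice of pairs was not tested, so the p-value is not read apart from it. With mutual best matches only, the difference was -6.04 percentage points (exact permutation test, adjusted p = 0.00163). The share was 63.1% in member pairs with end differences only and 59.9% in those with an internal difference. Every compared intron was equal in 126 member pairs (12%) and 153 identical-list pairs (11.4%). No compared intron was equal in 63 member pairs (6.00%) and 2 identical-list pairs (0.149%). Fewer introns were compared per member pair on average, which makes either outcome easier to reach, so these shares of pairs are not directly comparable.

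The place in the gene order was the same for most pairs of either kind. It lay within 10 gene ranks of the expected interval in 982 of 1050 member pairs (93.5%) and in 1314 of 1342 identical-list pairs (97.9%), a mean difference of -4.09 percentage points (SD 3.09, n = 11 chromosome pairs). The identical-list pairs belong to the genes that set the expected order and have only 1 possible match each, which favours their share. The planned test (exact permutation p = 0.000977, adjusted p = 0.00122) is therefore not read as a difference between the kinds of pair. The value also depended on how partners were found, with -7.66 by the longest common subsequence, -2.65 for runs of at least 6 and -0.749 for mutual best matches only (exact permutation test, adjusted p = 0.291). The 68 member pairs outside this range shared fewer introns of equal length, with 40.1% against 63.0% in the 982 pairs inside it, and 28 of the 68 were mutual best matches.

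The copies lay on opposite strands in 311 of 1050 member pairs (29.6%) and in 349 of 1342 identical-list pairs (26%). The mean difference of 3.38 percentage points was smaller than its SD over the chromosome pairs (5.89, n = 11). It was positive in 8 of 11 and did not pass the exact permutation test (p = 0.0859, adjusted p = 0.0859). Chromosomes 17 and 18, 21 and 22, and 1 and 2 went the other way.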

How the data were processed

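RNA of 3 tissues was sequenced with 1 library each. The authors made the gene models with Evidence Modeler, which weighed ab initio predictions, aligned proteins and assembled transcripts, and deposited start and end positions in bp counted from 1, with no value per sample. No version of Evidence Modeler is given in the sources used here, and sequence was not used here. Members, lists and named pairs were chosen with earlier results of these data known.

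CDS lists were read in transcription order and aligned around the longest shared run at lowest cost: 0 for equal lengths, 1 for a change of up to 60 bp, 2 for a larger one, 1.25 for a segment in 1 copy, and 1 for 1 segment against 2 or 3. Genes of at least 5 CDS segments whose list recurred in exactly 1 gene, on the partner chromosome, set the expected gene order. For each class, the first 2 mutual best matches whose internal lists differ only in that class are named, by longest run, CDS number, chromosome and start, with the longest run, the longest model matched by 2 neighbouring genes and the first 2 members without partner. The naming of differences was tested on simulated data (200 copies of shared-list genes for each of 7 kinds of change, with 1 change per copy). Of the copies that kept a shared run of at least 4, 97% to 100% were named right, where any end class counted as right for a changed end. The search for partners, inexact fusions, several changes together and the search of neighbouring genes were not part of it, so these shares do not describe pairs with several differences. Alternatives varied the run, the matching rule, the genes admitted, the tolerances and the chromosome pairs. Python 3 with NumPy and Matplotlib was used.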

Additional observations from a re-analysis of the deposited data

How the results depend on the processing

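No result changed direction under any alternative run, and 175 of 189 values stayed within the SD over the chromosome pairs or on their side of the test's threshold. Of the 189, 110 only left out 1 chromosome pair, and 108 of these stayed. Among the 79 other alternatives 67 stayed. With models carrying a UTR only, the share of unique lists was 34.7%, the share of members with a partner 77.4% and the share of pairs with 1 internal difference 44.5%. The share with a partner was 74.6% for runs of at least 3, 53.9% for runs of at least 6, 75.0% by the longest common subsequence and 79.6% for 15 to 19 CDS segments. Runs of at least 6 gave 35.6% of pairs with 1 internal difference. Models with a UTR only gave a difference in long introns of 1.72 percentage points. A tolerance of 3 bp raised the share of equal spans to 39.7%. Mutual best matches alone left a difference in local gene order of -0.749 percentage points (exact permutation test, adjusted p = 0.291). The difference in opposite orientation passed the exact permutation test with placed genes only (3.93 percentage points, adjusted p = 0.0332) and by the longest common subsequence (3.88, adjusted p = 0.04). It also passed the exact permutation test without chromosomes 17 and 18 (4.31, adjusted p = 0.0332) and without chromosomes 21 and 22 (4.19, adjusted p = 0.043). Leaving out each chromosome pair in turn gave 2.47 to 4.31 for it. With mutual best matches only it was 1.34 and with a UTR only 1.40, and neither passed. The cause was not tested. The tests were paired by chromosome pair. No comparison of tissues was possible because the 3 libraries are 1 sample each and carry no value.

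A difference in CDS positions does not show which model is right, and genes with fewer than 10 or more than 19 CDS segments were not members. A shared run of lengths is no evidence from sequence, since sequence was not used here. The 11 chromosome pairs are parts of 1 genome and 1 annotation, so the p-values describe evenness across the genome and not replicated material.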
